A study of Mus musculus with 40 samples.

Results

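The response difference is how much more, or less, a gene changed with doxorubicin in p53-null than in wild-type mammary tumours. It was computed for each gene as treated minus untreated in p53-null tumours, minus treated minus untreated in wild-type tumours. It rests on 24 of the 40 tumours of the series, counted as 20 of 34 mice by taking tumours with the same title number as 1 mouse, which the labels do not state. Untreated wild-type tumours numbered 6 from 6 mice, treated wild-type tumours 6 from 5 mice, untreated p53-null tumours 6 from 4 mice and treated p53-null tumours 6 from 5 mice. All mice carried the MMTV-Wnt1 transgene, in which a mouse mammary tumour virus promoter drives the Wnt1 ligand. The tumours arose spontaneously, with the stroma and immune cells of the mouse in which they arose. Wild-type means wild-type for both Trp53 and Cdkn1a, and p53-null tumours were null for Trp53. Per the labels, treated mice received doxorubicin, an anthracycline that blocks topoisomerase II and breaks DNA, at 4 mg/kg into the peritoneum on 5 consecutive days, and tumours were taken 24 h after the last dose. Neither the ages of the mice nor the structure of the null alleles is known here. Values of the third genotype, p21-null (null for Cdkn1a, 16 tumours from 14 mice, untreated or on the same schedule), stand beside some results, because its libraries were made with the same kit as those of p53-null tumours.

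The p53 protein is a transcription factor that is stabilised after DNA damage. It binds a pair of short half-sites near its target genes and raises genes for cell cycle arrest (such as Cdkn1a, which encodes p21), for apoptosis (such as Bax and Bbc3), for DNA repair and for its own removal (such as Mdm2, which marks p53 for degradation). Genes of replication and mitosis fall indirectly, largely through p21 and a repressor complex that p21 activates. In MMTV-Wnt1 tumours, p53 is known for driving arrest rather than cell death after doxorubicin.

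Levels are given in rescaled TPM, which is TPM scaled to the sum over nuclear protein-coding genes in each tumour, and responses and differences are on the log2(rescaled TPM + 1) scale with standard errors. Adjusted p are from limma over 18968 genes with Benjamini-Hochberg adjustment, and a gene was called at an adjusted p under 0.05. Rescaling was needed because the kits differed: nuclear protein-coding genes held between 7.72 and 10.73% of TPM in wild-type libraries (a total RNA kit) and between 79.6 and 86.0% in p53-null libraries (the TruSeq RNA v2 kit). Short noncoding RNA held between 77.36 and 89.21% and between 0.38 and 1.23%. Kit and genotype cannot be told apart in the untreated levels. A response is a difference within 1 kit, so the response difference is free of a kit effect only where a kit acts alike on treated and untreated tumours on the log scale, which was not tested. Trp53 (chromosome 11, 69580359 to 69591873) stood at 72.8 to 104 in untreated and 74.6 to 99.9 in treated wild-type mice, and at 63.4, 85.5, 71.5 and 74.8 in untreated and 48.8, 47.9, 79.8, 88.1 and 53.4 in treated p53-null mice. A gene-level value does not resolve which exons an allele lacks, so it does not check the genotype, and p53-null is used as the labels give it. The transgene's ligand, Wnt1, stood at 83.8 to 113 and 84.9 to 126 in untreated and treated wild-type mice and at 56.2 to 200 and 116 to 259 in p53-null mice, a difference of 0.44 ± 0.43 (limma adjusted p = 0.743). Mammary epithelial markers were present in all 4 groups: 12 luminal markers summed to between 2450 and 6760 and 10 basal markers to between 1980 and 5830, and none had a median of 0 in a group. Tumour cell fractions are not known, and in bulk tumour RNA fewer cells of a type and less RNA per cell cannot be told apart. Mice are named by m and the number in their title. Among the mice, m1188 (treated wild-type) had the lowest summed level of G2 and mitosis genes (314, against 1360 to 2230 in untreated wild-type mice), m2119 (untreated p53-null) stood apart over a stretch of chromosome 10 that holds Mdm2, and m2771 (treated p53-null) lacked a pseudogene signal that the other treated p53-null mice had. Each is given beside the results it touches.

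In p53-null tumours a small set of genes, most of them induced in wild-type tumours, had a lower response. Of 18968 genes, 120 (0.633%) were called, of which 96 (0.506%) had a lower response in p53-null tumours and 24 (0.127%) a higher one (2042 genes had an unadjusted p under 0.05). Of the called genes, 73 of the lower and 22 of the higher differed by at least 2-fold. The median difference over all genes was 0.03, and 46.5% of genes were below 0. Some of the higher calls are entries with identical values in every tumour, and 20 higher calls remained with such entries counted once. The split of 96 lower and 24 higher calls was 33 and 13 with TPM as deposited, 140 and 29 with sample weights, 116 and 28 with every tumour as a separate sample, 81 and 38 with median-of-ratios scaling, 101 and 46 with histones and short noncoding RNA kept, 64 and 6 with only the 4 groups in the fit, and 83 and 7 over nuclear protein-coding genes. Without the treated wild-type mouse m978 it was 99 and 48. With TPM as deposited, nuclear protein-coding genes hold only 7.72 to 10.73% of TPM in wild-type libraries, so their values are smaller there. At a like rescaled level, the added 1 then shrinks a response more in wild-type than in p53-null libraries. Its part in the results with TPM as deposited was not tested.

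**Figure D1:**
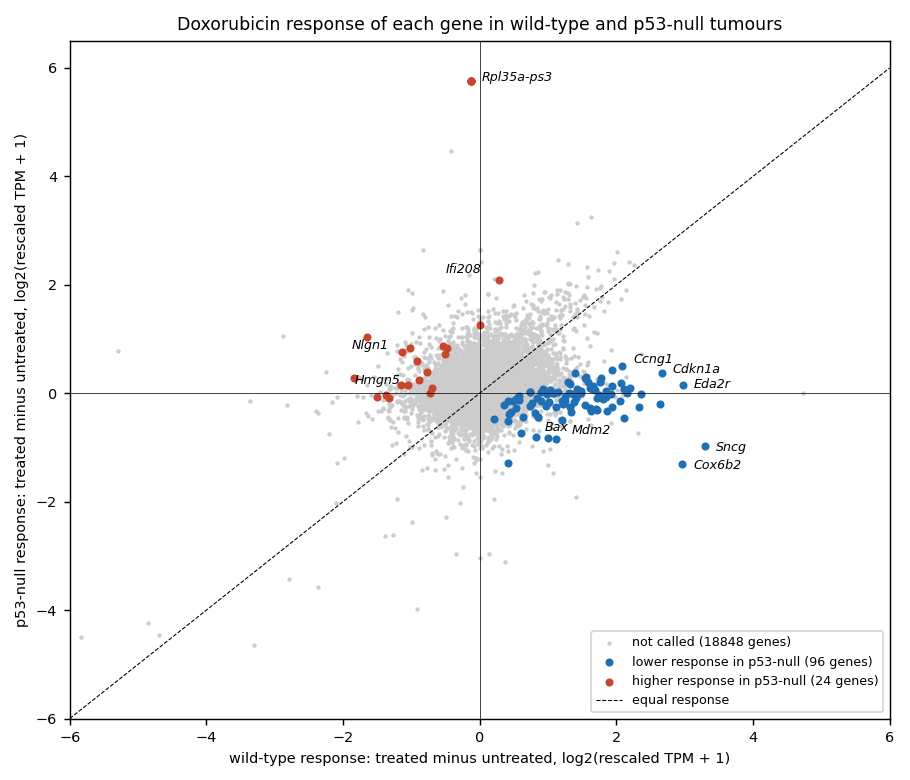
Each point is a gene, with its wild-type response on the x axis and its p53-null response on the y axis, both as treated minus untreated on the log2(rescaled TPM + 1) scale. Of the 96 genes called lower (blue), 88 lie within 0.5 of a p53-null response of 0, the 24 called higher (red) lie above the dashed line of equal response, and Rpl35a-ps3 stands for 5 entries with identical values.

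Most of the 96 genes called lower rose in wild-type tumours and passed no test of a response in p53-null tumours. Their median response was 1.33 in wild-type, -0.09 in p53-null and 1.0 in p21-null tumours. In wild-type tumours 92 of the 96 passed limma's test for a rise (3.35% of all genes did), and Derl3, Arl2, Gspt2 and Mief2 did not. In p53-null tumours 0 of them passed for a rise (0.981% of all genes did), with 1 above 0 at an unadjusted p under 0.05, and 3 passed for a fall (0.332% of all genes did). These 3 were Cox6b2, Derl3 and Arl2. Every treated wild-type mouse was above every untreated one in 83 of the 96 genes, against 3.77% of all genes, and in p53-null mice this held for 2 (Trp53cor1 and Polk), against 2.14% of all genes. Since the same responses make up the difference, these counts describe the called genes and add no evidence of their own. The wild-type response made up at least 75% of the difference in 78 genes, 50% to under 75% in 14 and under 50% in 4. The p53-null response lay within 0.5 of 0 in 88 genes and at or below -0.5 in 8.

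A low level limits what a response can show on this scale. Of the 96 genes, 27 (28.1%) had a mean under 1 in both p53-null groups, as did 18.7% of all genes tested, and for them a p53-null response of a few fold would appear small. The p21-null response of the 96 was above 0 in 92 and at least 0.5 in 71, where the median over all genes was -0.06. Those libraries were made with the same kit as the p53-null ones. The part of kit or of low level in the p53-null responses was not tested.

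Of 70 genes on 6 lists of p53 targets, 25 were called lower and 0 higher, that is 35.7% called lower beside 0.506% of all genes. At an unadjusted p under 0.05 in limma, 41 lay below 0 and 1 above, that is 58.6% below beside 5.66% of all genes. A difference below 0 was found in 59 of the 70 (84.3%), beside 46.5% of all genes. With TPM as deposited 15 targets were called lower. The lists were drawn up with earlier results of these data known, so the count is a description. The median difference of the 70 genes was -0.72, beside 0.03 over all genes, and their median responses were 0.76 in wild-type, 0.06 in p53-null and 0.75 in p21-null tumours. In limma's test of the response within a genotype, 38 of the 70 rose in wild-type tumours, beside 3.35% of all genes. In p53-null tumours 0 rose, beside 0.981% of all genes, and 0 fell, beside 0.332%. With shares this small over all genes, a count of 0 among 70 is near that of all genes. At an unadjusted p under 0.05, 7 of the 70 lay above and 7 below 0 in p53-null tumours.

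**Figure D2:**
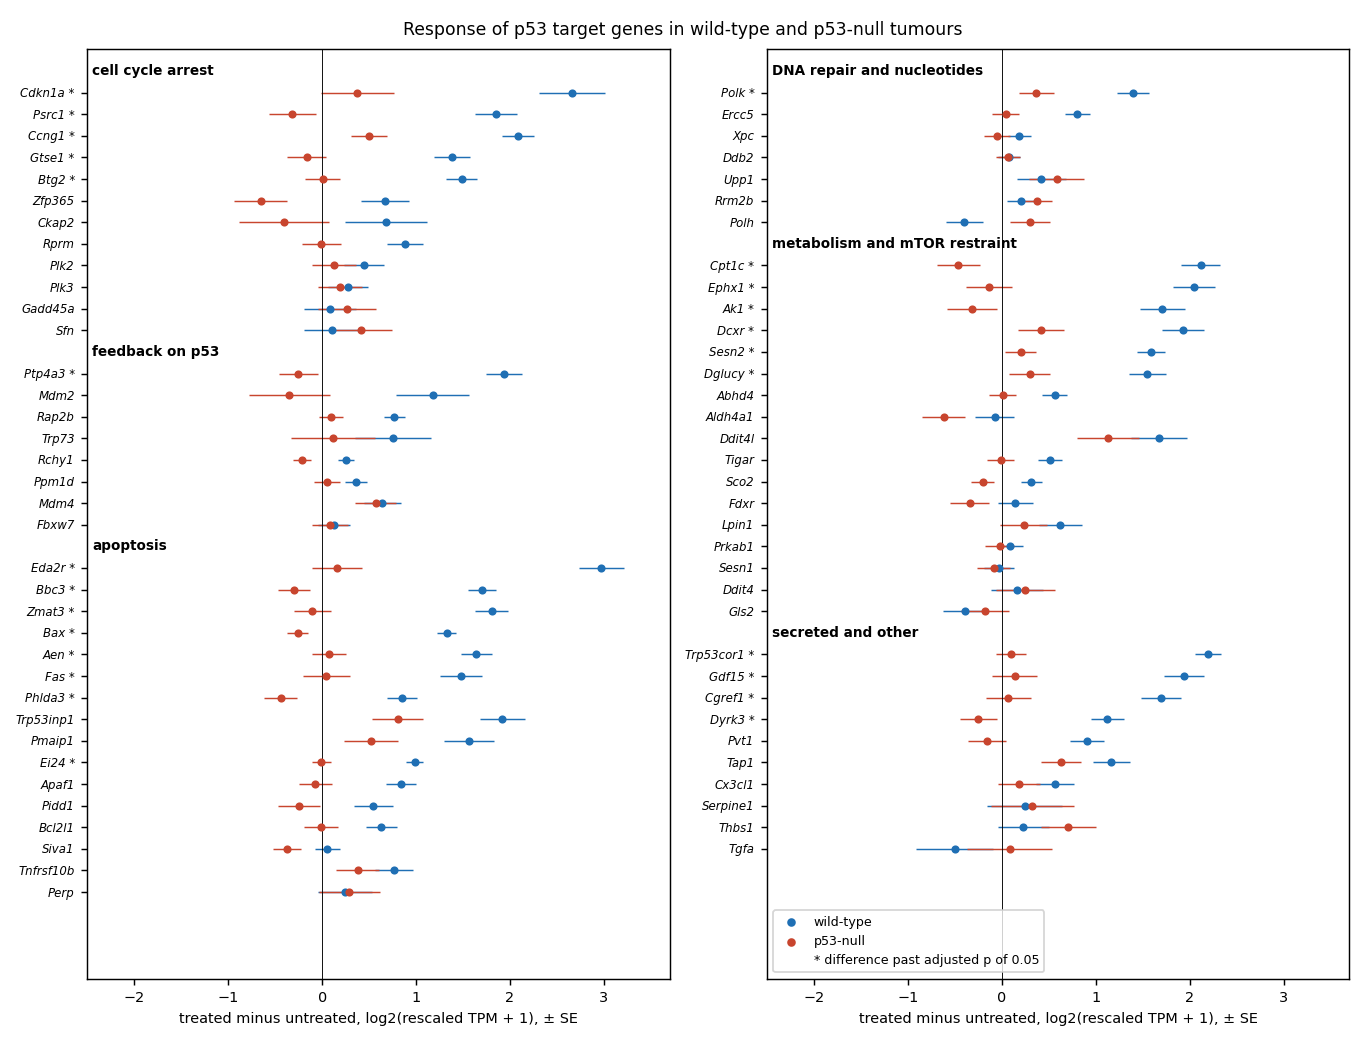
Response of each of the 70 p53 targets in wild-type (blue) and p53-null (red) tumours, as treated minus untreated on the log2(rescaled TPM + 1) scale with standard errors, grouped by role and ordered by the difference. The 25 genes with an asterisk had an adjusted p under 0.05, and in each the wild-type point lies to the right of the p53-null point.

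Among the cell cycle arrest targets, 5 of 12 were called lower, and the list's median difference was -1.21 (wild-type 0.78, p53-null 0.06). Cdkn1a (chromosome 17, 29090976 to 29100727, plus strand) encodes p21, the inhibitor of cyclin-dependent kinases that carries out p53-dependent arrest. It stood at 12.1, 37.2 and 51.1 (lowest, median and highest of 6) in untreated wild-type mice and at 213, 241, 225, 172 and 201 in treated ones. In p53-null mice it stood at 78.7, 17.8, 39.4 and 39.2 untreated and at 55.1, 57.2, 14.9, 62.7 and 105 treated. The wild-type groups were far apart, while the p53-null groups overlapped over most of their range. The difference was -2.29 ± 0.52 (SE; limma, Benjamini-Hochberg adjusted p = 0.0253). The call was lost with TPM as deposited, with only the 4 groups in the fit, and without the untreated p53-null mouse m1556 or m881, and its adjusted p ran from 0.00185 to 0.182 over all alternatives. In tumours labelled p21-null Cdkn1a was at 33.4 to 78.4 untreated and 224 to 328 treated, and the gene-level value does not show which part of the gene that allele lacks.

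Ccng1, which encodes cyclin G1, rose from a median of 82.1 in untreated wild-type mice (range 69.7 to 128) to 401, 391, 491, 315 and 274 in treated ones. Levels in p53-null mice were 20.7, 21.2, 24.2 and 12.4 untreated and 31.5, 22.0, 22.5, 33.7 and 28.8 treated. The untreated p53-null level was already below every wild-type mouse, and in that comparison the kit differs too. The difference in response was -1.59 ± 0.26 (limma adjusted p = 0.000519). Psrc1, a microtubule-associated protein, stood at 43.4 to 99.3 untreated and 204 to 292 treated in wild-type mice, and at 23.6 to 74.0 and 32.0 to 60.7 in p53-null mice, a difference of -2.17 ± 0.34 (limma adjusted p = 0.000264). Its p53-null groups overlapped, with the treated median (40.2) under the untreated one (65.8). Btg2, an antiproliferative protein that p53 induces (-1.48 ± 0.25), and Gtse1, a microtubule-binding protein that restrains p53 in G2 (-1.55 ± 0.28), were the remaining called members, and the call of Gtse1 was lost with TPM as deposited. Gadd45a, a growth arrest gene, had a difference of 0.19 ± 0.42 and a response of 0.08 ± 0.28 in wild-type tumours.

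Among apoptosis targets, 8 of 16 were called lower, and the median difference was -1.08 (wild-type 1.16, p53-null -0.01). Bax, which permeabilises the outer mitochondrial membrane, was at 63.5, 75.1 and 88.3 (lowest, median and highest) in untreated wild-type mice and at 204, 186, 217, 175 and 187 in treated ones. The p53-null mice were at 130, 158, 107 and 111 untreated and 99.8, 101, 113, 105 and 101 treated. The treated wild-type mice thus stood above all p53-null mice, and the untreated ones below them. The difference of -1.59 ± 0.15 had the smallest adjusted p of the 70 targets (limma adjusted p = 6.6e-08). Bbc3, which encodes the BH3-only protein Puma, rose from 4.81 to 10.1 up to 18.9 to 28.4 in wild-type mice, and was at 9.09 to 11.6 untreated and 6.40 to 9.10 treated in p53-null mice (-2.0 ± 0.23; limma adjusted p = 1.46e-06). Its p53-null groups met at their edges, and its wild-type groups were apart.

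Eda2r, which encodes a TNF receptor superfamily member, had the largest difference of the 70 targets, -2.81 ± 0.36 (limma adjusted p = 1.34e-05). It stood at 3.30 to 15.3 in untreated and 43.5 to 66.0 in treated wild-type mice, and at 0.249 to 0.363 and 0.239 to 0.842 in p53-null mice. No p53-null mouse reached a level of 1, so that its p53-null response, 0.16 ± 0.27, is bounded by the pseudocount. With a pseudocount of 0.1 the difference was -2.75. In p21-null mice Eda2r went from 1.81 to 3.51 untreated to 13.0 to 30.7 treated. The other called apoptosis genes were Zmat3, an RNA-binding zinc finger protein (-1.91 ± 0.26), Aen, a nuclease that aids apoptosis (-1.57 ± 0.25), the death receptor gene Fas (-1.43 ± 0.34), Phlda3, which restrains Akt at the membrane (-1.30 ± 0.23), and Ei24 (-1.0 ± 0.14). Perp, a tetraspan membrane protein, had a difference of 0.05 ± 0.43.

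**Figure D3:**
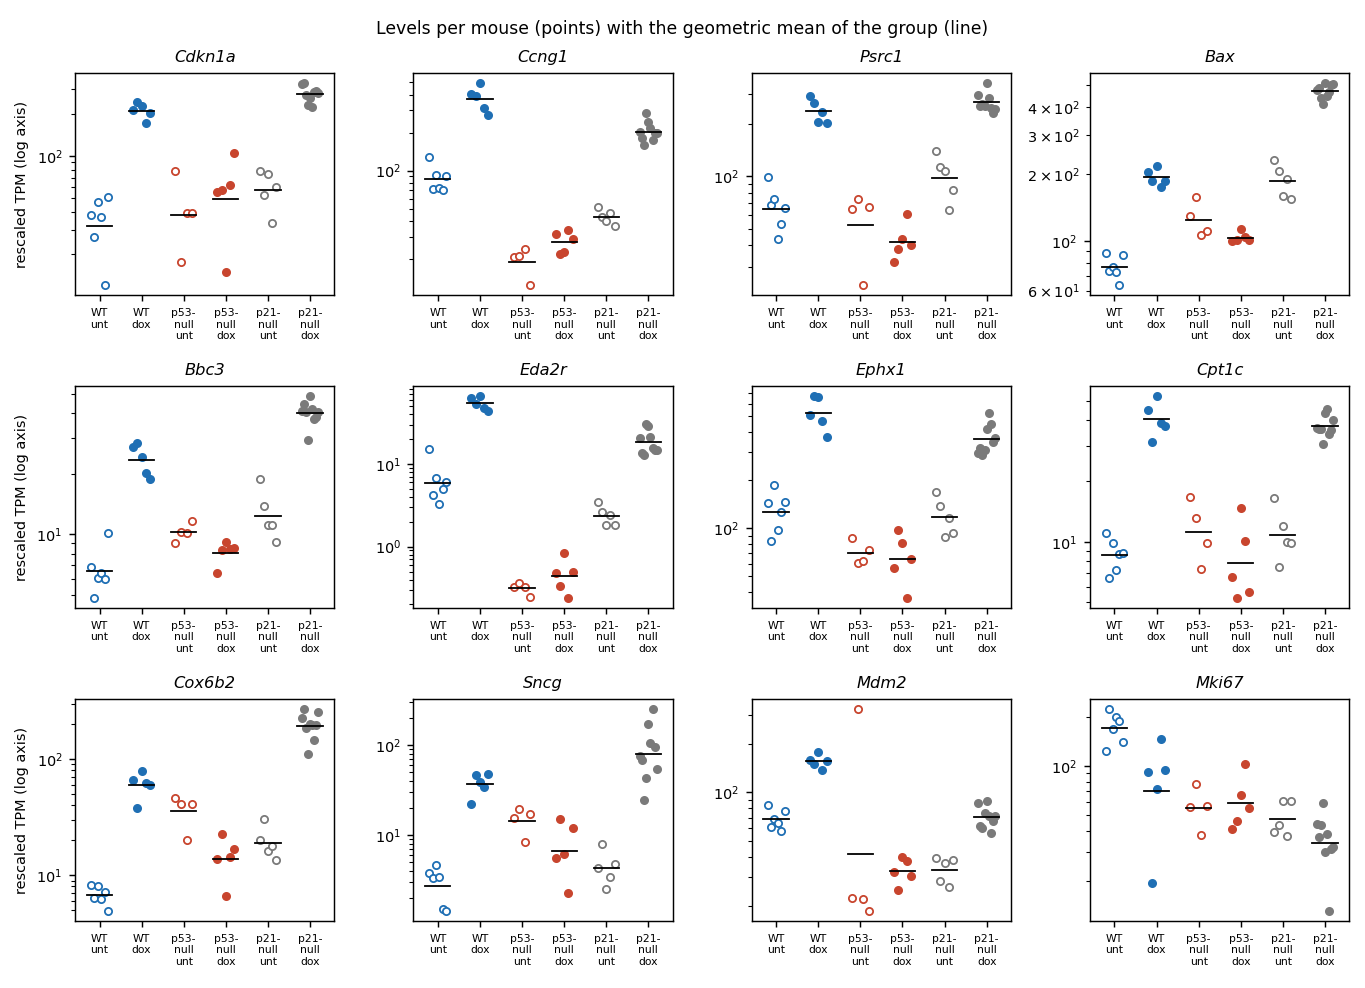
Level of 12 genes in each mouse in rescaled TPM on a log axis, with open points for untreated and filled points for doxorubicin-treated mice and a line at the geometric mean of each group. For Cdkn1a, Ccng1, Bax and Bbc3 the treated wild-type and treated p21-null mice stand above their untreated groups while the p53-null groups overlap or lie close together, and for Mdm2 the untreated p53-null mouse m2119 stands at 327.

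Of 17 targets in metabolism and restraint of mTOR, 6 were called lower, with a median difference of -0.54. Cpt1c, a carnitine palmitoyltransferase of the endoplasmic reticulum, rose from 6.60 to 11.1 up to 31.3 to 52.8 in wild-type mice and was at 16.6, 13.2, 7.37 and 9.85 untreated and 6.68, 5.26, 14.8, 10.1 and 5.63 treated in p53-null mice (-2.58 ± 0.31; limma adjusted p = 3.57e-06). Ephx1, the microsomal epoxide hydrolase, rose from 83.6 to 187 up to 373 to 668 in wild-type mice and stood at 61.0 to 87.1 and 36.6 to 97.8 in p53-null mice (-2.18 ± 0.33). For both genes the treated and untreated p53-null mice overlapped. Ak1, an adenylate kinase (-2.03 ± 0.36), Dcxr, a dicarbonyl and xylulose reductase (-1.51 ± 0.33), Sesn2, a stress-induced inhibitor of mTORC1 (-1.39 ± 0.22), and Dglucy, a D-glutamate cyclase (-1.25 ± 0.30), were also called. The call of Dglucy was lost with TPM as deposited, with median-of-ratios scaling, with a pseudocount of 0.1 and in 11 of the 20 fits that each left out 1 mouse, and that of Dcxr with TPM as deposited, with only the 4 groups in the fit, and without the untreated p53-null mouse m1556 or m2493. Ddit4l, a further inhibitor of mTOR, was not: its response was 1.67 ± 0.30 in wild-type and 1.13 ± 0.33 in p53-null tumours, a difference of -0.54 ± 0.45 (limma adjusted p = 0.696).

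DNA repair targets differed least. Their median response was small in wild-type tumours too (0.20, beside 0.30 in p53-null and 0.10 in p21-null tumours). Of 7 tested 1 was called, Polk, a translesion polymerase. The median difference was -0.01, and it ran from -0.067 to 0.065 when 1 mouse was left out. Polk rose from 13.1 to 24.0 up to 39.9 to 52.9 in wild-type mice. In p53-null mice it was at 3.91, 4.65, 4.43 and 2.43 untreated and 5.18, 4.95, 4.99, 5.80 and 4.87 treated, without overlap, and its response there, 0.37 ± 0.19, did not pass the test. The difference, -1.03 ± 0.25 (limma adjusted p = 0.0436), lost its call in 16 of the 20 fits that each left out 1 mouse. Ddb2, a damage sensor of nucleotide excision repair that is a p53 target chiefly in human cells, had responses of 0.07 in both wild-type and p53-null tumours. Of the 10 secreted and other targets, 4 were called: Trp53cor1 (lincRNA-p21), Gdf15, a stress cytokine (-1.80 ± 0.32), Cgref1 (-1.62 ± 0.32) and the kinase gene Dyrk3 (-1.37 ± 0.26). With TPM as deposited 0 of the 9 tested there were called (Trp53cor1 was not among them), and the list's median difference was -0.33 in place of -0.80. The call of Gdf15 was also lost with a pseudocount of 5, and that of Cgref1 with only the 4 groups in the fit. Gdf15 reached 16.6 to 34.8 in treated p21-null mice and 2.59 to 11.1 in treated wild-type mice, and in p53-null mice it did not exceed 1.34.

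Trp53cor1 (chromosome 17, 29057430 to 29079179, minus strand), the long noncoding RNA that lies next to Cdkn1a, had one of the smallest adjusted p. It was at 0.0949, 0.370 and 0.580 (lowest, median and highest) in untreated wild-type mice and at 5.04, 6.99, 5.19, 4.50 and 5.03 in treated ones. In p53-null mice it was at 0.0358, 0.0251, 0.0293 and 0.0830 untreated and 0.109, 0.116, 0.149, 0.113 and 0.0966 treated. The treated p53-null mice thus lay above the untreated ones, at levels far under 1. The difference was -2.10 ± 0.21 (limma adjusted p = 1.4e-07). In treated p21-null mice it reached 0.176 to 1.69, below every treated wild-type mouse, and the kit differs in that comparison.

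A search of promoter windows shows where p53 half-sites lie in some of these genes. RefSeq windows from 250 bases before to 50 after the start (build GRCm38.p6) were searched on both strands, which are equivalent for this palindromic element, for 2 p53 half-sites of 10 bases with a spacer of 0 or 1 base, at most 2 mismatches and the central C and G of each half-site intact. Such an element was present in 6 of 72 lower genes with a window (8.33%) and in 0 of 6 higher genes. It was present in 112 of the 12464 tested genes with a window (0.899%), and in 0.807% of all 27025 genes with a window. A match is a description of the letters and not a binding site, and a missing one says nothing about p53, which often binds further away. The 6 genes were Cdkn1a, Ccng1, Bax, Rps27l, Gtse1 and 1700007K13Rik. In 4 of them the element ended before the start, and these are shown 5′ to 3′ on the strand of the gene, with the element in capitals and up to 40 flanking bases in lower case. They are printed so that the half-sites can be compared between genes with different responses. A gene can have more than 1 RefSeq start (32851 windows for 27025 genes), and each distance is from the start of the window shown. That start need not be the most used one. For Cdkn1a it lies at the 5′ end of the gene's interval, which begins at 29090976.
Cdkn1a (chr17:29090888-29090978, plus strand, element 51 to 32 bases before the start): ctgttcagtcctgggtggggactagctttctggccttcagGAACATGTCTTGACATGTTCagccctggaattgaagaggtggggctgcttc
Ccng1 (chr11:40755422-40755521, minus strand, element 195 to 176 bases before the start): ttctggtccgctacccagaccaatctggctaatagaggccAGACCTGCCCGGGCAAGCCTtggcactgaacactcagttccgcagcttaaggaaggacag
Bax (chr7:45467039-45467139, minus strand, element 201 to 181 bases before the start): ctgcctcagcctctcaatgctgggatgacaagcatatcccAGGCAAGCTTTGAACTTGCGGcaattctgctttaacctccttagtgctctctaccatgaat
Rps27l (chr9:66946256-66946355, plus strand, element 117 to 98 bases before the start): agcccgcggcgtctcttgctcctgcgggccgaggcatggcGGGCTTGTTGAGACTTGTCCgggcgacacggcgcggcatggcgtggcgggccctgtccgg
The elements of Cdkn1a, Ccng1 and Rps27l each had 1 mismatch and no spacer, and that of Bax had 2 mismatches and a spacer of 1 base. Rps27l, a ribosomal protein paralogue that p53 induces, had the smallest of the 4 differences, -0.70 ± 0.15, and Cdkn1a the largest.

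Targets that act back on p53 were mostly not called. Of 8, 1 was called lower: Ptp4a3, a phosphatase, which rose from 8.15 to 12.7 up to 27.2 to 58.5 in wild-type mice and stood at 13.8 to 20.8 untreated and 8.20 to 20.8 treated in p53-null mice (-2.19 ± 0.28; limma adjusted p = 1.34e-05). All 8 had a difference below 0, with a median of -0.55 (-0.26 with TPM as deposited). Rap2b, a small GTPase, had a difference of -0.67 ± 0.17 (limma adjusted p = 0.0547), and Mdm4, a p53 inhibitor, one of -0.07 ± 0.30.

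Mdm2 (chromosome 10, 117688875 to 117710758, minus strand), the ubiquitin ligase of p53, did not pass the test, and 1 mouse set its spread. It stood at 58.1, 66.6 and 84.0 (lowest, median and highest) in untreated wild-type mice and at 159, 150, 178, 137 and 157 in treated ones. In untreated p53-null mice it was at 22.4 (m1556), 327 (m2119), 21.9 (m2493) and 18.6 (m881), and in treated ones at 32.3, 25, 40.2, 38 and 30.4. Without m2119 each treated p53-null mouse was above each untreated one, and with it the ranges overlapped. The difference was -1.53 ± 0.58 (limma adjusted p = 0.315) with m2119 and -0.56 (limma adjusted p = 0.324) without it.

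The neighbours of Mdm2 stood high in m2119 with it. Of 30 protein-coding genes within 3 Mb that had a median of at least 1 in the 3 other untreated p53-null mice, 17 were at least 5-fold above that median in m2119. They lay between 115287084 and 118168997 on chromosome 10, at 5.17 to 25.1 times the median of the other mice (median 14.4). In all 17, m2119 was the highest of the 20 mice. Cct2, a subunit of the chaperonin TRiC, was at 4190 in m2119 and 231, 238 and 298 in the others. Yeats4, a chromatin reader, was at 678 against 37.4, 41.3 and 54.0, and Nup107, a nuclear pore subunit, at 327 against 18.8, 16.8 and 29.3. Between the first and the last of the 17, another 5 genes were under 5-fold, among them the macrophage gene Lyz2 (1.12) and the stem cell receptor gene Lgr5 (0.63). The 8 genes outside that stretch were at 0.681 to 1.07 times the median. DNA copy number was not measured in these files, and its part in the pattern was not tested.

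**Figure D4:**
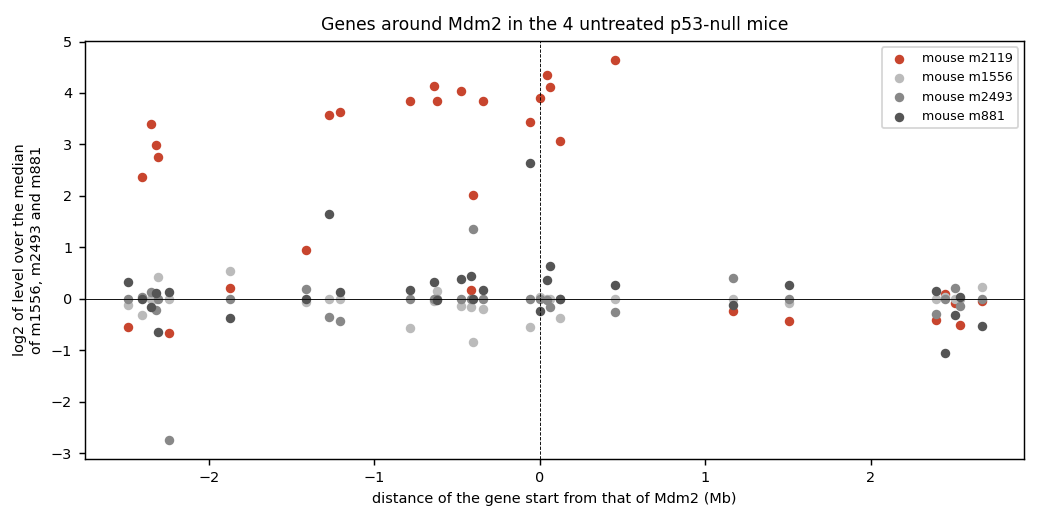
Level of each protein-coding gene around Mdm2 in the 4 untreated p53-null mice, as the log2 of its ratio to the median of m1556, m2493 and m881 (y axis), against the distance of its start from that of Mdm2 in Mb (x axis). In m2119 (red) 17 genes stood 5.17 to 25.1 times above that median, and the genes to the right of Mdm1, at 0.453 Mb, were near 0.

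Several of the largest differences were outside the p53 target lists. Cox6b2 (chromosome 7, 4751792 to 4753094, minus strand), a subunit of cytochrome c oxidase that is otherwise mainly a testis gene, had the most negative of the called differences, -4.27 ± 0.37 (limma adjusted p = 1.83e-08). It rose from 4.93, 6.75 and 8.18 (lowest, median and highest) in untreated wild-type mice to 66.1, 37.9, 78.5, 62.5 and 60.0. In p53-null mice it went the other way, from 46.6, 40.9, 20.1 and 41.0 to 13.7, 22.5, 6.60, 14.3 and 16.8. The untreated p53-null mice were thus above the untreated wild-type mice, and 3 of the 4 were above every treated p53-null mouse. Its response was 2.97 ± 0.25 in wild-type and -1.30 ± 0.28 in p53-null tumours, and both passed limma's test. In p21-null mice it was at 13.5 to 30.7 untreated and 111 to 269 treated.

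Sncg, which encodes gamma-synuclein, had a pattern like that of Cox6b2, with a difference of -4.27 ± 0.63 (limma adjusted p = 0.000158). It rose from 1.45 to 4.66 up to 22.3 to 47.7 in wild-type mice, and stood at 15.6, 19.8, 8.42 and 17.3 untreated and 5.58, 15.0, 6.16, 2.29 and 12 treated in p53-null mice, a response there of -0.97 ± 0.47 that did not pass the test. The p53-null groups overlapped. Inka2, an inhibitor of the kinase Pak4, rose from 3.24 to 5.49 up to 20.2 to 30.2 in wild-type mice and was at 1.58 to 3.66 untreated and 1.42 to 3.56 treated in p53-null mice (-2.58 ± 0.28). Ano3, of the anoctamin family, rose from 0.290 to 0.911 up to 4.57 to 8.48 in wild-type mice, and did not exceed 0.0866 in any p53-null mouse (-2.15 ± 0.28). Olfr1318, an olfactory receptor gene (chromosome 2, 112154198 to 112159157), rose from 0.110 to 0.870 up to 4.92 to 9.05 in wild-type mice, and was at 0.132, 0.0376, 0 and 0 untreated and 0, 0, 0.186, 0 and 0 treated in p53-null mice. Its difference was -2.37 ± 0.22 (limma adjusted p = 4.67e-08), and it was at 0.48 to 1.72 in treated p21-null mice. The calls of Ano3 and Olfr1318 were lost with TPM as deposited. On that scale the added 1 weighs more in wild-type libraries, and its part in the lost calls was not tested. The neighbour of Olfr1318, Olfr1317 (chromosome 2, 112140329 to 112144054), was called too, with a difference of -1.79 ± 0.18 (limma adjusted p = 1.4e-07). The responses of Olfr1317 were 1.75 in wild-type, -0.04 in p53-null and 0.51 in p21-null tumours. Whether the counting split reads between these 2 genes was not tested.

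A few other lower calls, chosen here after their values were seen, are given as single genes. Mgmt, which removes alkyl groups from guanine, differed by -1.89 ± 0.33 (wild-type 2.07, p53-null 0.18, p21-null 2.04). Rev1, a translesion scaffold and deoxycytidyl transferase, differed by -1.04 ± 0.22 (wild-type 1.05, p53-null 0.01, p21-null 1.14). The p53-null response was at or below -0.5 in 8 of the 96 lower calls, among them Serpine2, Cryab and Derl3. Serpine2, a protease inhibitor, was at 82.5 to 133 in untreated and 161 to 364 in treated wild-type mice, and at 126, 223, 135 and 449 untreated and 127, 87.0, 94.6, 164 and 105 treated in p53-null mice (-1.97 ± 0.38; p53-null response -0.85 ± 0.28). Cryab, a small heat shock protein, had responses of 0.82 ± 0.21 and -0.80 ± 0.23. Derl3, a component of endoplasmic reticulum degradation, had responses of 0.41 ± 0.27 and -1.28 ± 0.30, and of these 3 genes it was the only one whose p53-null response passed the test.

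Higher calls were few and mostly outside protein-coding genes. Of the 24, 7 were protein-coding, 11 were processed pseudogenes and 5 were antisense transcripts. Among the 18968 genes tested 14892 were nuclear protein-coding, and among the 96 lower calls 84 were protein-coding. The 11 pseudogenes include 5 Rpl35a entries with identical values, which are 1 signal. A mean under 1 in both p53-null groups was found in 8 of the 24, beside 18.7% of all genes tested and 28.1% of the lower calls. In 22 the wild-type response was below 0, where the median over all genes was 0.02. These 22 include 5 Rpl35a entries with identical values, at -0.13 ± 0.83. Library kits that differ in strand and in the capture of unspliced RNA read antisense and intronic transcripts differently, and their part in these calls was not tested. Hmgn5, a nucleosome-binding protein, was 1 of the 5 that met the rule for level and annotation. It stood at 20.6, 25.7 and 33.5 (lowest, median and highest) in untreated wild-type mice and at 12.1, 12, 10.4, 22.1 and 14.2 in treated ones. In p53-null mice it was at 41.0, 45.8, 50.4 and 36.6 untreated and 54.6, 46.4, 35.9, 60.1 and 64.4 treated. The wild-type groups overlapped by 1 treated mouse and the p53-null groups overlapped widely. The difference was 1.13 ± 0.24 (limma adjusted p = 0.0128), and the call was lost with TPM as deposited and with only the 4 groups in the fit.

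Ifi208, an interferon-inducible gene of the PYHIN family, was the only one of these 5 with a wild-type response above 0 (0.29 ± 0.25), and its p53-null response was 2.08 ± 0.28. It was at 1.30, 0.288, 0.292 and 0.474 untreated and 6.38, 5.16, 6.05, 3.51 and 7.10 treated in p53-null mice, and at 0.483 to 1.11 and 0.458 to 2.97 in wild-type mice (1.79 ± 0.38; limma adjusted p = 0.0109). The call was lost with every tumour as a separate sample (adjusted p = 0.0608). Genes of this family are alike in sequence, and the counting could split their reads. Nlgn1, the synaptic adhesion protein neuroligin 1, fell in wild-type mice from 8.07 to 19.3 to 4.40 to 11.3, and was at 0.276 to 1.54 and 0.157 to 4.01 in p53-null mice (1.89 ± 0.41). Its call was lost with TPM as deposited, with a pseudocount of 0.1, with only the 4 groups in the fit and without the untreated p53-null mouse m2119. Epb41l4a (1.31 ± 0.32) and Psd3 (1.24 ± 0.30) had adjusted p of 0.0437 in limma, and both calls were lost in 13 of the 20 fits that each left out 1 mouse.

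The largest positive difference, 5.89 ± 1.24 (limma adjusted p = 0.0109), belonged to Rpl35a-ps3 and 4 further processed pseudogene entries of the ribosomal protein gene Rpl35a with identical values (Rpl35a-ps2, Rpl35a-ps4, Rpl35a-ps6 and Gm10243). They were at 1.99, 1.97, 1.93 and 2.02 in untreated p53-null mice and at 432, 481, 616, 518 and 0.628 in treated ones. In wild-type mice Rpl35a-ps3 did not exceed 1.74, and in p21-null mice 2.68. Thus 4 of 5 treated p53-null mice stood at 432 or more and m2771 at 0.628. These entries are near-identical copies whose reads cannot be assigned to 1 of them, and the values are uncertain.

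No member of the 25 other lists was called. Of 404 genes tested on these lists, 48 (11.9%) had an unadjusted p under 0.05 in limma, beside 10.8% of all genes, and 0 an adjusted p under 0.05, beside 0.633%. These shares are near those of all genes, and the medians that follow are descriptions of lists without calls. Over all genes 46.5% had a difference below 0, and the counts of signs in these lists stand beside that share. Proliferation genes were on the other side of 0 from the p53 targets. All 30 G2 and mitosis genes had a difference above 0, with a median of 0.78 (wild-type response -0.69, p53-null 0.07, p21-null 0.12). Of 30 G1/S and replication genes 27 did, with a median of 0.50 (wild-type -0.62, p53-null -0.13, p21-null -0.22). Mki67, a proliferation marker, was at 123, 178 and 222 (lowest, median and highest) in untreated wild-type mice and 91.9, 19.3, 72.6, 145 and 95.0 in treated ones, and at 56.6, 78.1, 37.8 and 57.0 and 41.2, 46.5, 66.2, 103 and 55.5 in p53-null mice (1.34 ± 0.51; limma adjusted p = 0.325). The treated wild-type mouse m1188 had the lowest value, 19.3. Without m1188 the median difference was 0.41 for G2 and mitosis genes, with 28 of 30 above 0, and 0.28 for G1/S and replication genes, with 22 of 30 above 0.

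Lists of immune and stromal genes differed in where they lay. Of 17 macrophage markers 16 had a difference below 0, with a median of -0.50 (wild-type response 0.92, p53-null 0.36). Their summed level was 1340 to 1880 in untreated and 2070 to 3830 in treated wild-type mice, and 1450 to 1940 and 797 to 3410 in p53-null mice, and none of the 17 had a median of 0 in any of these groups. The median was -0.13 without the treated p53-null mouse m2769, and -0.26 with 12 of 17 below 0 with TPM as deposited. Of 30 lysosome genes 27 were below 0 (median -0.30), and of 26 phagocytosis and efferocytosis genes 20 were (median -0.51, or -0.31 without m2769). Among the latter, Gas6, which bridges dying cells to phagocytes, rose from 102 to 226 up to 485 to 654 in wild-type mice and stood at 72.0 to 173 and 54.1 to 289 in p53-null mice (-1.73 ± 0.50; limma adjusted p = 0.13).

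Basal cell markers (9 of 10 below 0, median -0.80, or 7 of 10 and -0.42 without the untreated p53-null mouse m2119) included Krt5, a basal keratin, which was at 133 to 199 and 310 to 460 in wild-type mice and at 448, 781, 253 and 433 untreated and 264, 675, 42.8, 436 and 272 treated in p53-null mice (-1.99 ± 0.60; limma adjusted p = 0.17). All 12 skeletal muscle markers were below 0 (median -1.37), with sums from 7.67 to 605 in treated wild-type and from 7.77 to 2260 in treated p53-null mice, a wide spread within groups, and 1 of the 12 had a median of 0 in treated wild-type mice. The muscle median ran from -2.46 without the treated p53-null mouse m2771 to -0.69 without the treated wild-type mouse m1475. NK and cytotoxic markers had a median difference of 0.72, with 7 of 8 above 0 (0.44 without the treated p53-null mouse m2237). All 11 T cell markers were above 0, with a median of 0.15. Without the treated p53-null mouse m2551 or m2771, 7 of the 11 were above 0. The median was 0.05 without the untreated p53-null mouse m1556. The lists for fibroblasts (7 of 12 below 0), endothelium (6 of 10) and neutrophils (5 of 8) were split across 0.

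The interferon-stimulated genes responded in both genotypes. Their median response was 1.51 in wild-type, 1.79 in p53-null and 2.0 in p21-null tumours, and the median difference was 0.28, with 25 of 30 above 0. It was -0.16 without the untreated p53-null mouse m881, and 0.75 with 29 of 30 above 0 with TPM as deposited. Red blood cell markers had median responses of -4.70 in wild-type and -4.23 in p53-null tumours, with a median difference of 0.23 whose sign changed with the scaling. The medians of the lists for luminal cells (0.18), senescence and secretory genes (0.01), Wnt targets (0.02), apoptosis regulators outside the p53 targets (0.12), DNA repair outside them (0.17), immediate early genes (0.14), integrated stress (-0.05), MHC class I presentation (-0.05), fibroblasts (-0.26), endothelium (-0.10), T cells (0.15), neutrophils (-0.17), adipocytes (0.29), milk proteins (-0.25) and B cells (0.68) had 0 calls among them. For MHC class I, neutrophil, p53 repair and red blood cell genes the sign of the median depended on the scaling. Leaving out 1 mouse changed the sign of the median of 10 of the 25 lists: interferon-stimulated, fibroblast (-0.39 to 0.15), endothelial (-0.21 to 0.03), senescence (-0.25 to 0.14), Wnt target (-0.20 to 0.17), milk protein (-1.01 to 0.72), neutrophil (-0.86 to 0.32), MHC class I (-0.21 to 0.11), integrated stress (-0.14 to 0.11) and red blood cell genes (-0.49 to 1.01).

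**Figure D5:**
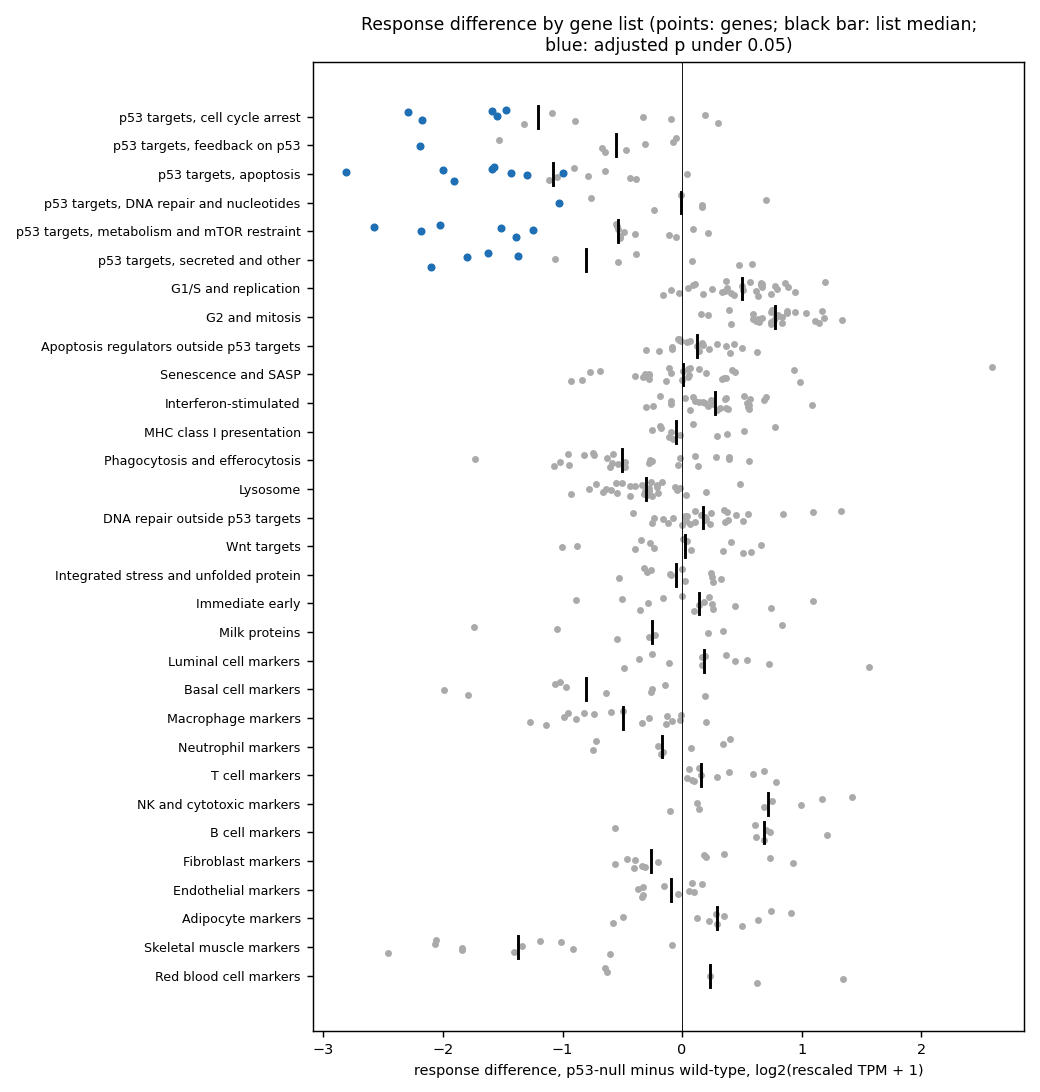
Response difference of each member (points) of the 31 lists on the log2(rescaled TPM + 1) scale, with a black bar at the list median and called genes in blue. The 25 blue points lie in the 6 p53 target lists at differences between -1.0 and -2.81, and the medians of the 2 proliferation lists lie to the right of 0.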

How the data were processed

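The authors deposited 1 table of TPM per tumour (43346 genes). RSEM and mm10 are named in the submitters' processing notes, and the file names give Ensembl release 79 models on GRCm38. The sources used here do not give the version of RSEM, the aligner or the strand setting. Identifiers were matched to GENCODE M21 (884 unmatched, left out). TPM carry no depth, so the sequencing depth is unknown and no counting interval can be given. TPM were rescaled to 21461 nuclear protein-coding genes. Replication-dependent histones (67) and short noncoding RNA (5765) were left out, because the kits capture them differently.

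Tumours with the same title number were taken as 1 mouse and averaged on the log2 scale. The labels do not state this. The deviations from the group mean of the 4 such pairs correlated at -0.29 to 0.07 across genes, beside medians of -0.22 to -0.21 between different numbers. With every tumour as a separate sample 144 genes were called. A level per mouse is that mean turned back to rescaled TPM. Genes that reached a rescaled TPM of 1 in 4 or more mice were fitted as log2(value + 1) with limma 3.58.1 in R 4.3.3 (trended and robust moderation, 6 group means, 34 mice, 28 residual degrees of freedom, 2-sided). On this scale folds of low genes are understated. Beyond the title numbers nothing says that samples came from separate animals, so p-values measure the spread between these samples. The fit was tested on simulated data.

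Genes named are Trp53, Cdkn1a and Wnt1, the 12 largest differences in each direction among called genes with a group mean of at least 5 in 1 of the 4 groups (no predicted genes, pseudogenes or receptor segments; 5 qualified among the higher), up to 6 members per p53 list and 1 per other list by adjusted p (a number set after outlying values had been counted), and others named as examples beyond these, which were chosen after their values were seen. The members, lists and tests were chosen with earlier results of these data known. The alternatives were scaling, pseudocount, filter, groups, unit of replication, moderation, weights, gene set and leaving out each mouse. Fits of protein-coding genes only and with identical entries counted once were added after seeing the data.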

Additional observations from a re-analysis of the deposited data

Results flagged for a closer look

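The response to doxorubicin differed between p53-null and wild-type tumours, by limma's test of the difference itself, in 120 genes, of which 96 were lower and 24 higher in p53-null tumours. Single mice far from the rest of their group were looked for in 292 pairs of a named gene and a group of 4 to 6 mice, and 26 pairs had one. If levels were normally spread, chance alone would flag about 1 in 20 such groups. The levels were not put on a log scale for this, so that rate need not hold here. The values below are levels in rescaled TPM, each beside the range of the other mice of the group.

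In untreated p53-null mice, m2119 had Mdm2 at 327 (others 18.6 to 22.4) and Ptp4a3 at 20.8 (13.8 to 14.6). In m2493 Csn1s2a, a milk casein, was at 590 (6.84 to 44.3) and Alas2, an erythroid enzyme, at 10.4 (2.51 to 3.57). In m1556 Csf3r, a neutrophil receptor, was at 5.74 (2.96 to 3.43).

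In treated p53-null mice, m2688 had Wnt1 at 259 (116 to 145), Ercc5 at 25.5 (15.4 to 17.1) and Olfr1318 at 0.186, where the others were listed at 0. In m2551 Rrm2b was at 7.54 (6.46 to 6.74), Mzb1, a plasma cell marker, at 6.31 (0.314 to 1.87) and Alas2 at 2.61 (0.99 to 1.17). In m2237 Bbc3 was at 6.40 (8.39 to 9.10), and in m2771 Tnnt3, a muscle troponin, was at 302 (0.136 to 37.0).

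In untreated wild-type mice, m1178 had Eda2r at 15.3 (3.30 to 6.78), Polk at 24.0 (13.1 to 16.5) and Pgr, the progesterone receptor, at 126 (15.8 to 47.6). In m713 Gusb was at 32.3 (40.1 to 43.6), Csn1s2a at 8.26 (0.29 to 2.66) and Alas2 at 27.3 (11.2 to 17.2), and in m620 Lep was at 1.11 (0.336 to 0.483).

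In treated wild-type mice, m1188 had Trp53cor1 at 6.99 (4.50 to 5.19), Csn1s2a at 8.93 (0 to 1.80) and Lep at 2.59 (0.802 to 1.20). In m1127 Ppm1d was at 31.6 (24.9 to 26.3) and Xpc at 35.0 (29.2 to 30.2), and in m978 Gas6 was at 485 (627 to 654).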

How the results depend on the processing

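Of 120 calls, 41 were among the 46 made with TPM as deposited (33 lower, 13 higher, 15 p53 targets). On that scale the added 1 weighs more in wild-type libraries, whose protein-coding genes hold a smaller share of TPM. Its part in these counts was not tested. With median-of-ratios scaling 119 genes were called, 38 of them higher, and 1 gene of the other lists. Only the 4 groups in the fit gave 70 calls, 6 of them higher. Higher calls numbered 11 with a pseudocount of 0.1, 46 with histones and short noncoding RNA kept, and 7 over protein-coding genes. Leaving out each mouse gave 96 to 147 calls, 76 to 120 lower, 17 to 48 higher, 21 to 27 p53 targets and 0 to 3 genes of other lists (3 without the treated p53-null mouse m2551). The cause of these moves was not tested. Sample weights gave 169 calls, 140 lower and 29 higher. Of 33 named calls, 17 held in all 33 alternative fits, Trp53cor1 held in the 31 that tested it (not with TPM as deposited or over protein-coding genes), 15 were lost in some other setting and 7 without some mouse, and no named gene's call reversed. No paired analysis was possible because title numbers do not match between groups. The depth is not known, and 4 to 6 mice a group limit the precision.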
